A study of Homo sapiens with 6 samples.

Results

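The genes described here are 10 regulators of DNA methylation and of the upkeep of genomic imprints, measured by RNA-seq in Hep3B cells. They were chosen by symbol, for their known roles and with earlier results of these data known, and are DNMT1, DNMT3A, DNMT3B, DNMT3L, UHRF1, TET1, TET2, TET3, ZFP57 and TRIM28. All 10 were among the 23228 genes of the tables. The exception to testing was ZFP57, so 9 of them stood among the 14537 genes that passed the filter on low counts. Hep3B is a cell line from a human liver carcinoma. RNA came from 3 control libraries, of cells carrying a lentiviral non-targeting shRNA, and from 3 libraries labelled PELP1-KD, of cells carrying a lentiviral shRNA against PELP1. Both kinds of cell were grown in RPMI medium, and the PELP1-KD cells were stable clones selected with puromycin and pooled. Per the titles these cells carried the first of the study's shRNAs, whereas the protocol names both. The labels do not say whether the 3 libraries of a group came from separate cultures, so p values measure the spread between libraries, which may be technical.

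DNA methylation in mammals lies mostly on cytosines followed by guanine, the CpG sites. DNMT1 copies the mark onto the new strand after replication, and UHRF1 brings it there by binding CpG sites that carry the mark on the old strand alone. DNMT3A and DNMT3B add the mark to unmethylated sites, and DNMT3L is a partner without enzyme activity that stimulates them, mainly in germ cells and early embryos. The TET enzymes oxidize methylated cytosine, which starts its removal. At imprinted genes, where the maternal or the paternal copy alone is active, ZFP57 binds the methylated copy and recruits TRIM28, also called KAP1, a scaffold that gathers histone and DNA methyltransferases. Liver tumors are known for lowered methylation over much of the genome together with raised methylation at many promoters.

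The 6 libraries held from 26758180 to 34456393 reads on genes. PELP1, the targeted gene, had between 4893 and 5102 normalized reads in control and between 4421 and 4840 in the libraries labelled PELP1-KD. The groups did not overlap, but edgeR did not call the difference, with a log2 fold change of −0.08 and an adjusted p of 0.101. With PELP1 RNA that close to control, the groups keep their labels here, and every direction given is that of the labels. By Western blot the paper reports lower PELP1 protein in its Hep3B PELP1-KD cells, which RNA counts do not measure. All 10 markers of liver cells were expressed in both groups, and edgeR called 7 of them lower and 3 higher, with ALB (albumin) at a log2 fold change of −0.61 and AFP (alpha-fetoprotein) at 0.62. Their summed level was between 906709 and 920540 normalized reads in control and between 799153 and 814685 in PELP1-KD. Among 10 markers of blood, endothelial, stromal and squamous cells, KDR and KRT5 had 0 reads in all libraries and 4 passed the filter, of which LUM and CD68 were called higher and CD14 lower. The summed level of these 10 was between 1894 and 2076 normalized reads in control and between 2688 and 2782 in PELP1-KD. The part of either shift in the results was not tested.

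DNMT1 and UHRF1 were lower in PELP1-KD than in control, while DNMT3A, DNMT3B and DNMT3L were higher. TET1, TET2, TET3 and TRIM28 were not called. Thus 5 of the 9 tested members had an adjusted p below 0.05 from edgeR, where 53.6% of all tested genes did. The share was close to that background, so the number of calls is no result about these genes as a set. The 3 called higher and the 2 called lower stand against 26.8% of all tested genes in each direction. The same shares are the background for the calls in each list of related genes, and no list was tested against the other genes. At an adjusted p below 0.05 together with at least a 2-fold change, DNMT3L was the single member called, where 7.65% of all tested genes were. The 5 called members were also those whose 3 values of one group lay apart from the 3 of the other, as they did for 58.8% of all tested genes (29.5% higher and 29.3% lower). Libraries were made from bulk RNA, so less RNA per cell and fewer cells that express a gene cannot be told apart.

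**Figure D1:**
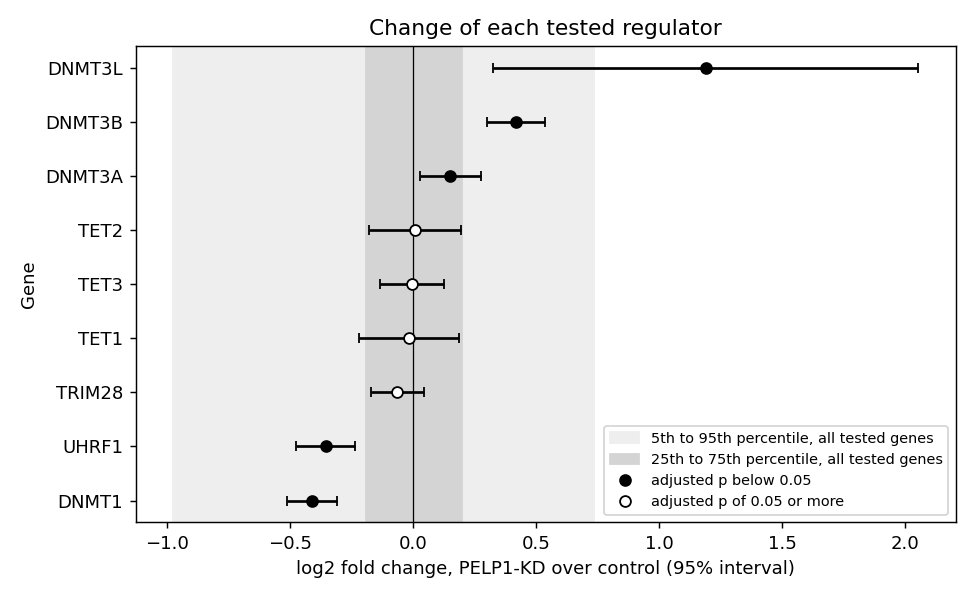
The log2 fold change of PELP1-KD over control (horizontal axis) is plotted for each of the 9 tested regulators, as points with 95% intervals. Shaded bands hold the 25th to 75th and the 5th to 95th percentiles of all tested genes. DNMT1 and UHRF1 lie below 0 and DNMT3A, DNMT3B and DNMT3L above it, while the intervals of TET1, TET2, TET3 and TRIM28 include 0.

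DNMT1, the maintenance methyltransferase, is a minus-strand gene of chromosome 19, between 10244022 and 10305755 in hg19, the build of all gene positions given here. It had 6448, 6544 and 6741 normalized reads in control and 4966, 4817 and 5057 in PELP1-KD. Every PELP1-KD library was below every control library. The means were 6578 ± 150 and 4947 ± 121 normalized reads (SD, n = 3 each), so PELP1-KD held 75.2% of the control level, with a log2 fold change of −0.41 (SE 0.04, edgeR adjusted p = 1.19e-08). This was a change of moderate size, since 24.7% of all tested genes changed by more in either direction. UHRF1, which guides DNMT1 to newly copied DNA, lies on the same chromosome from 4909510 to 4962165 on the plus strand. Its values were 2770, 2767 and 2864 normalized reads in control and 2150, 2127 and 2291 in PELP1-KD. These groups were apart as well, and PELP1-KD held 78.2% of control, with a log2 fold change of −0.35 (SE 0.04, edgeR adjusted p = 8.76e-07). When single libraries were dropped, the log2 fold change of DNMT1 stayed between −0.43 and −0.39 and that of UHRF1 between −0.39 and −0.33.

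Both genes fell by similar amounts. UHRF1 stood at 54.5 ± 0.448% of the DNMT1 level in RPKM (reads per kilobase of exon, scaled to library size) in control and at 56.6 ± 1.30% in PELP1-KD (SD, n = 3 each). The groups did not overlap in this ratio (two-sided exact permutation test, p = 0.1, which is the minimum for 3 against 3, and 0.16 after Benjamini-Hochberg adjustment over the 8 ratios and shares tested).

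Start regions of DNMT1 and UHRF1 are shown because the members that fell together can be compared there for letters that E2F factors are known to bind. Each window runs from 250 bases before to 50 bases after a RefSeq start site of GRCh38.p14, 5′ to 3′ on the strand of the gene. Windows were searched on both strands for TTTCCCGC, TTTCGCGC, TTTGCCGC and TTTGGCGC. Capitals mark a match. In the first and second windows the match is on the opposite strand and is thus printed as its reverse complement. The same letters were found once each in GRCh37 at chr19:10305580-10305879 for DNMT1 and at chr19:4909263-4909562 and chr19:4909906-4910205 for UHRF1.
DNMT1: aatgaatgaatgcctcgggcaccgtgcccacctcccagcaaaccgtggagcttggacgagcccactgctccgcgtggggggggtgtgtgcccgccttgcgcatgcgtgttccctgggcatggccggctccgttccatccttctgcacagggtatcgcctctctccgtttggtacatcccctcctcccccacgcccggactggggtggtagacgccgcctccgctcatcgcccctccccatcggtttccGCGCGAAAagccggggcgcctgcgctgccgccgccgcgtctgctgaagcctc
UHRF1, first start site: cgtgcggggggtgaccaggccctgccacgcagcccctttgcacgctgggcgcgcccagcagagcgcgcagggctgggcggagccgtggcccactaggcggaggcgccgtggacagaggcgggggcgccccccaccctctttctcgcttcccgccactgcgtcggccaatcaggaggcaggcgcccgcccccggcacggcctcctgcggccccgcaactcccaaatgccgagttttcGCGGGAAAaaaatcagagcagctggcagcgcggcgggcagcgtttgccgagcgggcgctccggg
UHRF1, second start site: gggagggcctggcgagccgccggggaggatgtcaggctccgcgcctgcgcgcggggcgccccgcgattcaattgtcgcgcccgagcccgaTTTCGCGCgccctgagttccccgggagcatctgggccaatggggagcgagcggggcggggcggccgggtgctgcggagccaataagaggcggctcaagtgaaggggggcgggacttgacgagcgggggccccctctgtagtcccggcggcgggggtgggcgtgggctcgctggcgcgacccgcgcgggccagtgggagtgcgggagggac
The match began 2 bases before the start site in DNMT1, and 14 and 160 bases before it in the UHRF1 windows. Another UHRF1 window, just downstream, had no match. Of the 35116 RefSeq windows of this length, 3.31% held at least 1 of the 4 words. Each word holds a CpG site, and this share was not matched for the number of CpG sites. It also counts single windows, whereas UHRF1 had more than 1. Windows were given for 8 members, not for DNMT3L or TRIM28, and no window of the other 6 members held a match. The DNMT3B window, at chr20:31367408-31367707 in GRCh37, belongs to a start site inside the gene, far from the start that the tables give. The TET3 and ZFP57 windows lie outside the listed gene positions, and some DNMT3A and TET1 windows lie inside the gene. A lack of a match in such windows says nothing of the listed gene starts. The DNMT1 window has 30 CpG sites and the first UHRF1 window 36, where the median window has 14. A match of letters is a description and says nothing of binding in these cells.

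Genes that act with DNMT1 and UHRF1 at copied DNA were called about as often as all tested genes. Of 8 such genes edgeR called 4 lower and 0 higher, where 53.6% of all tested genes were called and 26.8% were called lower, with a median log2 fold change of −0.14 beside 0.00442 for all tested genes. KIAA0101 (now PCLAF), a PCNA-binding factor that helps to recruit DNMT1, fell from 1608 ± 81.5 normalized reads in control to 1188 ± 19.1 in PELP1-KD (SD, n = 3), with a log2 fold change of −0.44. CDCA7, which guides the remodeler HELLS to chromatin, fell with a log2 fold change of −0.32, but the study picked this gene for RT-qPCR from these libraries. PCNA, the sliding clamp of the replication fork, and USP7, which removes ubiquitin from UHRF1 and DNMT1, were the other called genes, at −0.22 and −0.17. LIG1, HELLS, ZBTB24 and UHRF2 had log2 fold changes from −0.12 to 0.04 and were not called.

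DNMT1 and UHRF1 are known to be expressed most in S phase, so genes of DNA replication were set beside them. Of 17 such genes, 9 were called lower and 1 higher, where 26.8% of all tested genes were called in each direction, with a median log2 fold change of −0.15. MCM3 and MCM5, subunits of the replicative helicase, had log2 fold changes of −0.56 and −0.34, and MCM6 of the same helicase rose by 0.32. MCM3 is another gene that the study picked for RT-qPCR. The median of the 17 genes stood at 91.6%, 90.1% and 88.5% of the control mean in the PELP1-KD libraries, whereas DNMT1 stood at 75.5%, 73.2% and 76.9% and UHRF1 at 76.8%, 76.0% and 81.8%. Relative to control, both genes were lower than the median of the 17 in each PELP1-KD library. MCM3 alone of the 17 fell further than both, to 67.6% of control. The part of replication or of cell cycle position in the lower DNMT1 and UHRF1 was not tested.

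**Figure D2:**
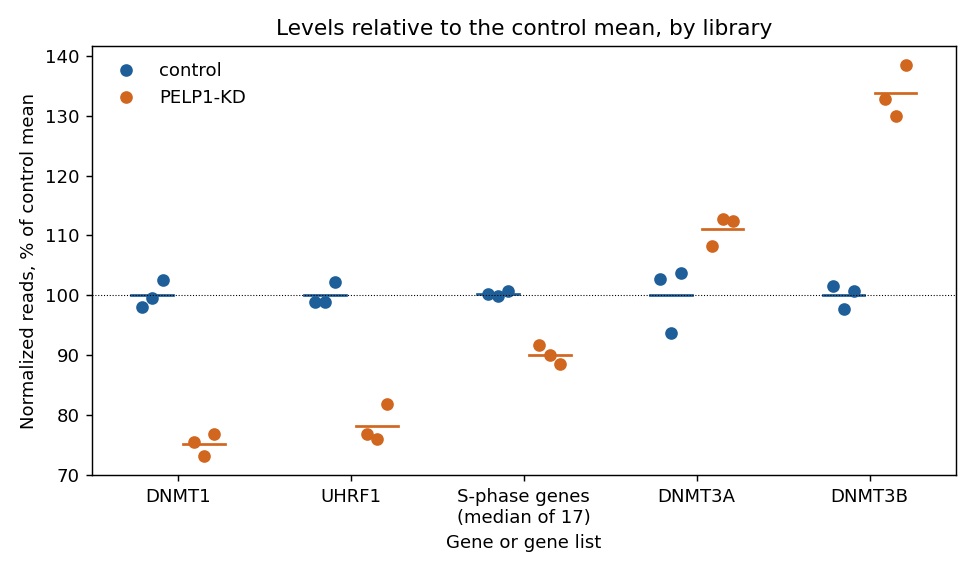
Normalized reads as a percentage of the control mean (vertical axis, which does not start at 0) are shown for each library as points, with a line at the group mean, for DNMT1, UHRF1, the median of 17 S-phase genes, DNMT3A and DNMT3B. In PELP1-KD, DNMT1 lies between 73.2% and 76.9% and DNMT3B between 129.9% and 138.4%.

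The de novo methyltransferases went the other way. DNMT3B lies on chromosome 20 from 31350191 to 31397162 on the plus strand. It had 1920, 1849 and 1904 normalized reads in control and 2511, 2457 and 2617 in PELP1-KD. No PELP1-KD library came near the control range, and the level was 133.7% of control. Its log2 fold change was 0.42 (SE 0.04, edgeR adjusted p = 8.32e-08), and it stayed between 0.39 and 0.44 when single libraries were dropped. DNMT3A, on chromosome 2 from 25455845 to 25565459 on the minus strand, had 2729, 2490 and 2756 normalized reads in control and 2878, 2996 and 2987 in PELP1-KD. The gap between the groups was narrow, and the second control library lay lowest. Its level was 111.1% of control, with a log2 fold change of 0.15 (SE 0.04, edgeR adjusted p = 0.00762). Without that control library the log2 fold change was 0.11 and the call was lost (edgeR adjusted p = 0.0781).

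DNMT3L, the partner of the de novo enzymes without activity of its own, lies on chromosome 21 from 45666223 to 45682099 on the minus strand. It was rare, with 18, 11 and 12 reads in control and 27, 19 and 38 in PELP1-KD. The lowest PELP1-KD library was just above the highest control library, and the third PELP1-KD library was the highest of all. Its log2 fold change was 1.19 (SE 0.31, 95% interval 0.33 to 2.05, edgeR adjusted p = 0.0032). Over the summed reads, 41 in control and 84 in PELP1-KD, the ratio scaled to library size was 2.30 with an exact 95% interval of 1.57 to 3.43, which covers counting error only. Without the third PELP1-KD library the log2 fold change was 0.95, below a 2-fold change (edgeR adjusted p = 0.0267). At a mean of 0.239 RPKM in control and 0.546 RPKM in PELP1-KD, DNMT3L RNA stayed far below that of DNMT3A and DNMT3B in either group.

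The makeup of DNA methyltransferase RNA differed between the groups. Of the summed RPKM of DNMT1, DNMT3A and DNMT3B, DNMT1 took 57.0%, 59.0% and 58.1% in control and 46.6%, 45.6% and 46.1% in PELP1-KD. DNMT3B took 19.8%, 19.4% and 19.1% in control and 27.5%, 27.2% and 27.8% in PELP1-KD. DNMT3A took 22.5 ± 0.845% in control and 26.4 ± 0.710% in PELP1-KD (SD, n = 3 each). None of the 3 shares overlapped between the groups, and each had a two-sided exact permutation p of 0.1, the smallest that 3 against 3 allow (0.16 after Benjamini-Hochberg adjustment over the 8 ratios and shares). The difference was −11.9 percentage points for DNMT1 and 8.02 for DNMT3B, and when single libraries were dropped these lay between −12.5 and −11.5 and between 7.86 and 8.20. In the order of levels within a library, DNMT3B came after UHRF1 and DNMT3A in control, whereas the RPKM ranges of DNMT3B, DNMT3A and UHRF1 ran into each other in PELP1-KD, from 16.0 to 18.0 RPKM over the 3 genes.

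**Figure D3:**
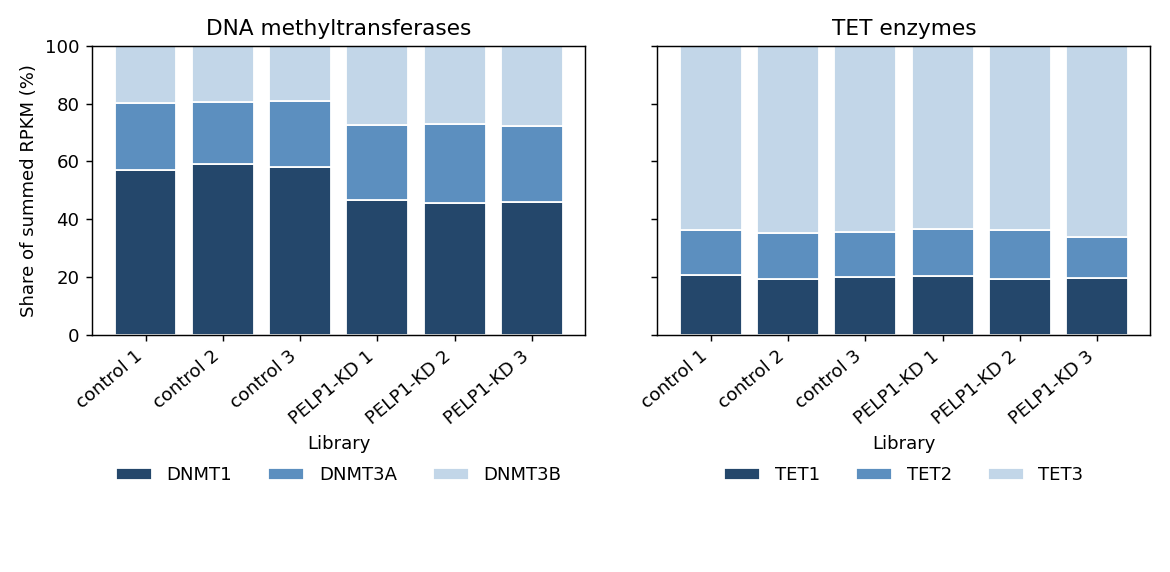
Stacked bars give the share of summed RPKM, in percent, of DNMT1, DNMT3A and DNMT3B (left) and of TET1, TET2 and TET3 (right) in each of the 6 libraries. The DNMT1 share is 58.1% on average in control and 46.1% in PELP1-KD, while TET3 holds 64.4% of TET RNA in both groups.

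The TET enzymes, which oxidize methylated cytosine, showed no called change. TET3, on chromosome 2 from 74273450 to 74335302, had 1946, 1932 and 1966 normalized reads in control and 2017, 1810 and 2000 in PELP1-KD. The PELP1-KD libraries lay on either side of the control libraries, with a log2 fold change of −0.003 (95% interval −0.13 to 0.13, edgeR adjusted p = 0.960). TET1, on chromosome 10 from 70320117 to 70454239, had 545, 501 and 532 normalized reads in control and 564, 480 and 517 in PELP1-KD, and its log2 fold change was −0.01 (95% interval −0.22 to 0.19). TET2, on chromosome 4 from 106067032 to 106200960, had 662, 670 and 654 normalized reads in control and 716, 678 and 605 in PELP1-KD, and its log2 fold change was 0.01 (95% interval −0.18 to 0.19). A change of any size within these intervals remains possible with 3 libraries a group. The sign of each turned with a library left out. The 3 shares of TET RNA overlapped between the groups, with exact permutation p of 0.8 or more. Summed TET RNA stood at 13.1 ± 0.198% of summed DNMT RNA in RPKM in control and at 13.8 ± 0.738% in PELP1-KD (SD, n = 3 each; two-sided exact permutation test, p = 0.1, adjusted 0.16). The groups almost touched, at 13.249% in the first control library and 13.256% in the second PELP1-KD library. The first PELP1-KD library was the highest, at 14.66%. The difference of 0.693 percentage points was 0.276 without the first PELP1-KD library.

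Genes that act after or beside the TET enzymes went both ways. Of 17, 16 were tested, 5 were called higher and 6 lower by edgeR, and the median log2 fold change was −0.06. IDH2, a mitochondrial enzyme that makes the 2-oxoglutarate that TET enzymes consume, fell from 6239 ± 222 normalized reads in control to 4338 ± 184 in PELP1-KD (SD, n = 3), with a log2 fold change of −0.52. IDH1, which makes the same product, had a log2 fold change of 0.06 and was not called (edgeR adjusted p = 0.143). In control IDH1 stood at 272 RPKM, against 115 RPKM for IDH2. CXXC5, a CpG-binding protein, fell with a log2 fold change of −0.47. OGT, the O-GlcNAc transferase that binds TET proteins, rose from 2279 ± 86.2 normalized reads in control to 2902 ± 114 in PELP1-KD (SD, n = 3), with a log2 fold change of 0.35. GADD45G, a stress protein tied to DNA repair, rose by 0.63. TDG, the glycosylase that removes oxidized methylcytosine, had a log2 fold change of −0.07 and was not called (edgeR adjusted p = 0.262).

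TRIM28, the scaffold of KRAB zinc finger repression, lies on chromosome 19 from 59055836 to 59062082 on the plus strand. It was the most abundant member, at 276 ± 7.65 RPKM in control and 264 ± 16.9 RPKM in PELP1-KD (SD, n = 3 each). It had 25378, 25200 and 26511 normalized reads in control and 23373, 24047 and 26367 in PELP1-KD. In both groups the third library was the highest, and the groups overlapped through it. The log2 fold change was −0.06 (SE 0.04, 95% interval −0.17 to 0.04, edgeR adjusted p = 0.177). When replicate numbers entered the fit as a block, TRIM28 was called lower at a log2 fold change of −0.06 (edgeR adjusted p = 0.00659). Without the third PELP1-KD library it was −0.12 and also called (edgeR adjusted p = 0.000304). Without the first PELP1-KD library it was −0.03 (edgeR adjusted p = 0.564) and without the third control library −0.04 (edgeR adjusted p = 0.481), and neither was called. The estimated count of TRIM28 was not whole in any of the 6 libraries, so some of its reads were shared with other places or genes.

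ZFP57, the zinc finger protein that marks imprinted regions for TRIM28, was listed at 0 reads in each of the 6 libraries. A count of 0 allows up to 3 reads, or from 0.0871 to 0.112 RPM (reads scaled to library size), for counting error only. The main copy of ZFP57 lies on chromosome 6 from 29640169 to 29644931 on the minus strand, but the annotation also places it on 7 alternative haplotypes of hg19. Of the 65 genes with as many haplotype copies on that chromosome, 26 (40%) had 0 reads in all libraries and 7 had a mean of at least 100 reads. Among genes on no alternative haplotype, 19.5% had 0 reads in all libraries and 11743 of 22989 had a mean of at least 100 reads. These sets were not matched for kind of gene, and OR2J2, OR2W1 and TNF were among the 26 at 0 reads. Absence of ZFP57 RNA therefore cannot be told apart from loss of reads that match several copies.

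Partners of TRIM28 in silencing went both ways. Of 10, 3 were called lower and 1 higher by edgeR, with a median log2 fold change of −0.06, which was −0.0058 without the third PELP1-KD library. SETDB1, the histone methyltransferase that TRIM28 recruits, fell from 1266 ± 4.43 normalized reads in control to 1028 ± 60.0 in PELP1-KD (SD, n = 3), with a log2 fold change of −0.30. C3orf63 (now TASOR), a subunit of the HUSH silencing complex, fell from 1244 ± 29.1 normalized reads in control to 928 ± 38.9 in PELP1-KD (SD, n = 3), with a log2 fold change of −0.42. CBX3, a heterochromatin protein, was called at −0.20 although its groups overlapped, and as a gene with many pseudogene copies it is less certain. MORC2, an ATPase that acts with HUSH, rose by 0.19.

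Other factors tied to imprints were partly absent. Of 14, 5 had 0 reads in every library (CTCFL, DPPA3, KHDC3L, NLRP2 and NLRP5), and NLRP7 and PADI6 were below the filter. Of the 7 tested, 3 were called higher and 0 lower. SMCHD1, a chromatin protein of the inactive X chromosome and some imprinted clusters, rose from 2646 ± 70.5 normalized reads in control to 3099 ± 196 in PELP1-KD (SD, n = 3), with a log2 fold change of 0.23. ZNF445, a KRAB zinc finger protein that protects imprints alongside ZFP57, rose by 0.15, and ARID4B by 0.14. CTCF, the insulator protein of imprinted domains, had a log2 fold change of −0.10 and was not called (edgeR adjusted p = 0.0531).

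Proteins that read methylated CpG sites also went both ways, with 3 of 8 called higher, 2 lower and a median log2 fold change of −0.03, which lay between −0.052 and −0.0026 when single libraries were dropped. MBD3, a NuRD subunit that itself binds methylated DNA weakly, fell from 4620 ± 210 normalized reads in control to 3441 ± 308 in PELP1-KD (SD, n = 3), with a log2 fold change of −0.42. ZBTB33 (Kaiso) was called at −0.22 although its groups overlapped. ZBTB38 and MBD1 rose by 0.31 and 0.29, and ZBTB4 by 0.12.

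Histone methyltransferases and demethylases whose marks guide de novo methylation had 5 of 10 genes called lower and 0 higher, close in all to the 53.6% called among all tested genes, and a median log2 fold change of −0.12. WHSC1 (now NSD2) fell from 6584 ± 103 normalized reads in control to 5428 ± 125 in PELP1-KD (SD, n = 3), with a log2 fold change of −0.28. EHMT1 fell by 0.20 on the log2 scale, and KDM1A, WHSC1L1 and SUV39H2 had log2 fold changes of −0.12, −0.12 and −0.15. EHMT2, a gene with alternative haplotypes, had 245 ± 272 normalized reads in control (SD, n = 3), so its value is not usable.

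The enzymes that make and recycle S-adenosylmethionine, the methyl donor of all DNMTs, had 9 of 16 tested genes called lower and 3 higher, where 26.8% of all tested genes were called in each direction, and a median log2 fold change of −0.20. The difference between these counts was not tested. CBS, which diverts homocysteine away from the cycle, fell from 5392 ± 146 normalized reads in control to 3533 ± 120 in PELP1-KD (SD, n = 3), with a log2 fold change of −0.61. SHMT1, which feeds one-carbon units into folate, fell with a log2 fold change of −0.39. NNMT, which uses up methyl groups on nicotinamide, rose from 181 ± 13.2 normalized reads in control to 411 ± 48.0 in PELP1-KD (SD, n = 3), with a log2 fold change of 1.18 (edgeR adjusted p = 4.04e-09). MAT2B, a regulatory subunit of the enzyme that makes the donor, rose by 0.26. MAT2A, a catalytic subunit of that enzyme, fell with a log2 fold change of −0.25 (edgeR adjusted p = 2.63e-06). In control MAT2A stood at 80.8 RPKM, against 13.1 RPKM for MAT1A. MAT1A, the form of that enzyme typical of adult liver, had a log2 fold change of 0.07 and was not called.

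**Figure D4:**
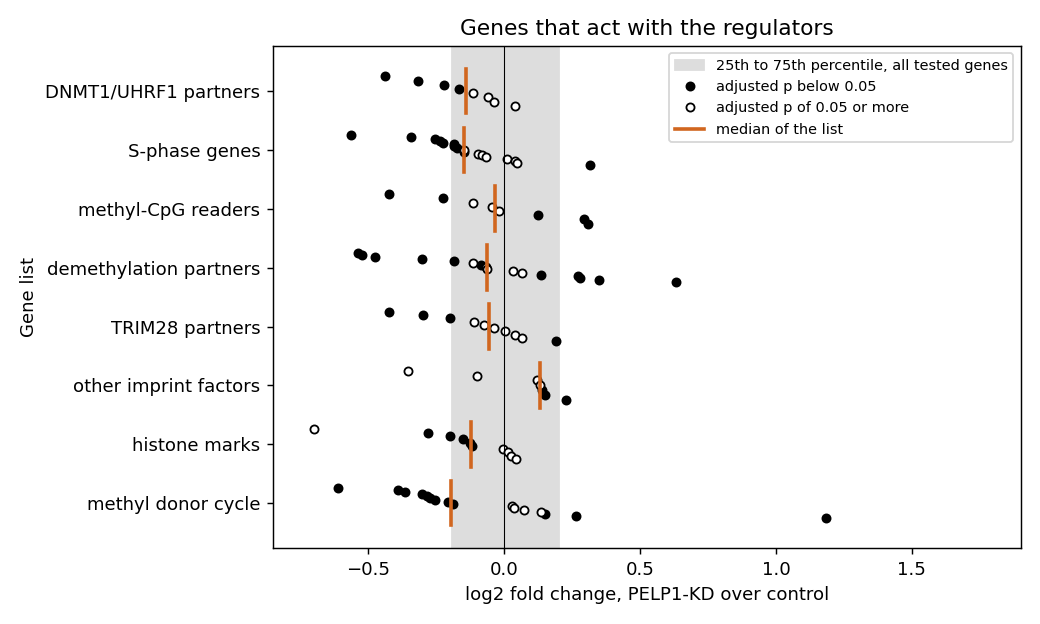
Each point is the log2 fold change of PELP1-KD over control (horizontal axis) of 1 tested gene in 8 lists of genes that act with the regulators, filled where edgeR's adjusted p was below 0.05. Vertical lines give the median of each list, from −0.20 for the methyl donor cycle to 0.13 for other imprint factors, and the band holds the 25th to 75th percentile of all tested genes.

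Of 14 germline genes that are known to be silenced by promoter methylation in body cells, 6 had 0 reads in every library and 1 passed the filter. That gene was BRDT, a testis bromodomain protein, which rose from 929 ± 17.8 normalized reads in control to 1231 ± 69.8 in PELP1-KD (SD, n = 3), with a log2 fold change of 0.41 (edgeR adjusted p = 3.11e-06). The other genes of this list, such as DAZL, DDX4 and MAEL, stayed at a mean of at most 4 normalized reads in either group. DNA methylation itself was not measured in these libraries.

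Levels of the members differed over a wide range. In control the order in RPKM was TRIM28, DNMT1 (38.8 ± 0.881), UHRF1 (21.1 ± 0.414), DNMT3A (15.01 ± 0.826), DNMT3B (12.99 ± 0.258), TET3 (5.64 ± 0.0492), TET1 (1.75 ± 0.0753), TET2 (1.37 ± 0.0162) and DNMT3L (0.239 ± 0.0599), with SD and n = 3. No neighbours in that order overlapped in their 3 values. In PELP1-KD the order was TRIM28, DNMT1 (29.1 ± 0.715), DNMT3B (17.4 ± 0.557), DNMT3A (16.7 ± 0.373), UHRF1 (16.5 ± 0.670), TET3 (5.63 ± 0.333), TET1 (1.73 ± 0.141), TET2 (1.38 ± 0.116) and DNMT3L (0.546 ± 0.150). There the neighbours DNMT3B and DNMT3A overlapped, as did DNMT3A and UHRF1.

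**Figure D5:**
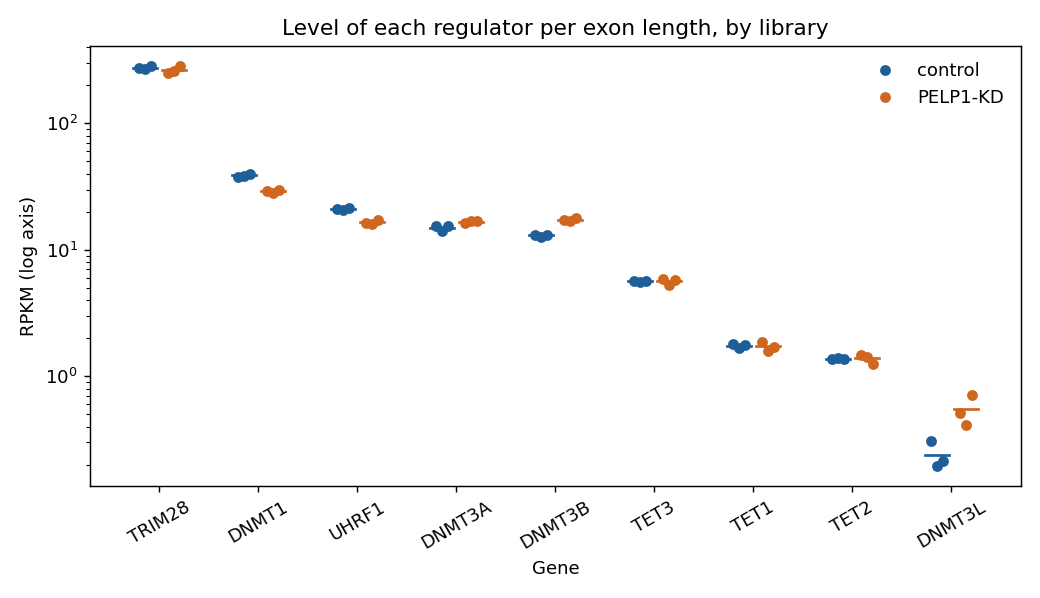
RPKM on a log axis (vertical) is shown for each library as a point and for each group as a line at the mean, for the 9 members with reads. TRIM28 is highest, at 276 RPKM in control, and DNMT3L lowest, at 0.239 RPKM.

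DNMT1 had the smallest p of the members. Over the 6 libraries, the genes whose log2 level ran most closely with it were GSTM3 (Pearson r = 0.9994), GNL3 (0.9992) and MMP11 (0.9990), out of 11776 tested genes with a mean of at least 100 reads. GSTM3 encodes a glutathione transferase, GNL3 a nucleolar protein and MMP11 a matrix metalloproteinase, and their log2 fold changes were −0.78, −0.40 and −1.15. The 6 libraries fall into 2 groups of 3, so this likeness is a description of the group difference.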

How the data were processed

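RNA-seq of 3 control and 3 PELP1-KD libraries was analysed. The deposited tables hold estimated counts per gene without normalization. Per the file headers, the authors ran featureCounts 1.5.0-p1 by strand on exons of hg19, with a minimum mapping quality of 2, and shared reads that matched several places or genes as fractions. The paper's methods name TopHat2 and HTSeq, and the submitters' processing notes name HISAT2. The labels name ribosomal RNA removal, and the series design names mRNA selection.

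Estimated counts were rounded to whole numbers and tested with edgeR 4.0.16 (TMM, filterByExpr, robust glmQLFit, glmQLFTest, R 4.3.3), with Benjamini-Hochberg adjustment over all tested genes and a threshold of 0.05. Each standard error (SE) was taken as the size of the log2 fold change divided by the root of its F statistic. The 95% intervals use 4 degrees of freedom. The p values of edgeR also rest on variances moderated over all tested genes, so the intervals are wider than those p values imply. For normalized reads, each count was divided by the TMM-scaled size of its library, set to a geometric mean of 1 over the libraries. RPKM uses the exon length in the tables. Alternatives included DESeq2 1.42.0.

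Members and lists were chosen with earlier results of these data known. Named are all members, PELP1, the 2 genes with the smallest p called in each direction of a list, and its genes called with at least a 2-fold change; any other listed gene was named after its values were seen. Some genes are not reported here. Same-numbered control and PELP1-KD libraries deviated from their group means with correlations of 0.333, 0.242 and 0.665 over 6397 genes, and, since all 3 were above 0.1, the replicate numbers in the titles were taken as pairs in a fit with a replicate block. The second control library correlated more with the first PELP1-KD library (0.418) than with its own number, so the third pair alone stood apart. Replicates of a group differed by more than sampling noise.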

Additional observations from a re-analysis of the deposited data

How the results depend on the processing

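In 15 alternative fits, the 5 called members kept their direction in all 74 values that could be computed, and kept the call in 73 of them, the exception being DNMT3A without the second control library. DNMT3L could not be tested with a minimum of 1 RPKM. The count of members called was 6 with the replicate block, through TRIM28, and between 4 and 6 when single libraries were dropped. The block changed no other call of a member. Genes called in all numbered 8828 with the block, and 595 rather than 1112 passed both thresholds with a minimum of 1 RPKM, a filter that tests fewer genes. When single libraries were dropped, the log2 fold change lay between −0.077 and 0.039 for TET1, between −0.048 and 0.076 for TET2 and between −0.030 and 0.044 for TET3, so their signs are not settled. The differences in share of TET RNA lay between −0.524 and 0.121 percentage points for TET1, between −0.443 and 0.928 for TET2 and between −0.833 and 0.454 for TET3. List medians lay between −0.081 and 0.0096 for demethylation partners, between −0.130 and −0.061 for histone marks, between −0.208 and −0.181 for the methyl donor cycle and between −0.079 and −0.0058 for TRIM28 partners, and the cause of these moves was not tested. Depth limits DNMT3L.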
